A study of Mus musculus with 6 samples.

Results

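The complement genes described here are 32 components, receptors and regulators of the complement system, of 40842 reference genes measured in mouse lung. They were chosen by gene symbol, with earlier results of these data known. They were followed in 3 lung RNA libraries of female wild-type C57BL/6N mice labelled only as control (control 1 to 3) and in 3 libraries of mice of the same strain and sex that had received 20 Gy of 9 MeV electrons in 1 dose, taken at 100 days (irradiated 1 to 3). All 6 libraries are polyA RNA of whole lung labelled as 100 days, and the exposed body region is not given in the sources used here. The labels do not say whether each library is from its own mouse. A p-value therefore sets the group difference against library-to-library spread, some or all of which may be technical. Levels are FPKM as the authors deposited them, that is fragments scaled to transcript length and to the sequenced total, so levels of different genes are compared per length. Whole lung RNA cannot tell fewer cells of a type apart from less RNA per cell.

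Complement is a cascade of plasma and tissue proteins that marks targets for uptake, draws in leukocytes and forms pores in membranes. It starts by the classical route (C1q bound to antibody or to damaged cells), the lectin route (collectins and ficolins with their MASP proteases) or the alternative route (C3 that turns over spontaneously, with factors B and D and properdin). All routes cleave C3 and then C5. The small fragments C3a and C5a signal through receptors on myeloid cells, and the larger C5 fragment starts the terminal pore with C6, C7, C8 and C9. Most circulating complement is made by liver, while alveolar epithelium, fibroblasts, mesothelium and macrophages make components locally.

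The depth implied by the deposited coverage was 5.11 to 10.4 Gb of aligned sequence per library, with irradiated 2 the deepest. Some libraries stood apart in the markers of other tissues. Control 2 had the highest summed adipocyte and cardiac muscle markers (253 and 448 FPKM, against 6.54 to 121 and 13.7 to 189 FPKM in the other libraries). Irradiated 2 had the highest neutrophil and red cell markers (4888 and 6251 FPKM, against 77.4 to 1437 and 1346 to 1707 FPKM). The alveolar type 2 marker Sftpc, at 8741 to 16828 FPKM, was present at a high level in all 6 libraries labelled as lung. The 7 hepatocyte markers, Alb among them, summed to 1.03 to 3.73 FPKM per library, while the 32 complement genes summed to 934 to 1572 FPKM.

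No complement gene passed the test between irradiated and control lung. In limma on log2(FPKM + 1), 0 of the 27 members with a mean of at least 1 FPKM had an adjusted p under 0.05, against 0.18% of all 13908 genes tested (25 genes, with 0.0647% higher and 0.115% lower). Those 25 genes were 9 higher and 16 lower. With FPKM rescaled to a common sum 13 genes were called, 7 higher and 6 lower. At an unadjusted p under 0.05 stood 7 of the 27 members, 4 toward higher and 3 toward lower levels, against 17.7% of all genes (7.41% toward higher and 10.3% toward lower levels). These 7 were also the members whose groups did not overlap, against 24.5% of all genes. Properdin (Cfp), the protease Masp1 and the C5a receptors C5ar1 and C5ar2 lay above all controls in every irradiated library, where 9.91% of all genes did so. Masp1 is among them only because its irradiated level took it past the filter. C2, C6 and Hc lay below all controls, where 14.6% of all genes did so. The share of 7 in 27 members was near the second of these backgrounds and somewhat above the first. The median log2 change (irradiated minus control) of the 27 was 0.06, beside −0.03 for all genes. The number of members at an unadjusted p under 0.05 was 8 without control 2 and irradiated 2 together, beside 10.9% of all genes. It was 3 without control 1, without control 2 or without irradiated 3, beside 13.7%, 10.7% and 19.7% of all genes. Without irradiated 2 it was 11, beside 14.3%. Without irradiated 1 it was 9, beside 19%, and without control 3 it was 5, beside 11.9%. Under median-ratio and upper-quartile scaling the number was 5, beside 18.1% and 18.8%, and with a common sum 6, beside 19.8%. With a filter at 5 FPKM it was 5 of 22 members, beside 19.9%.

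**Figure D1:**
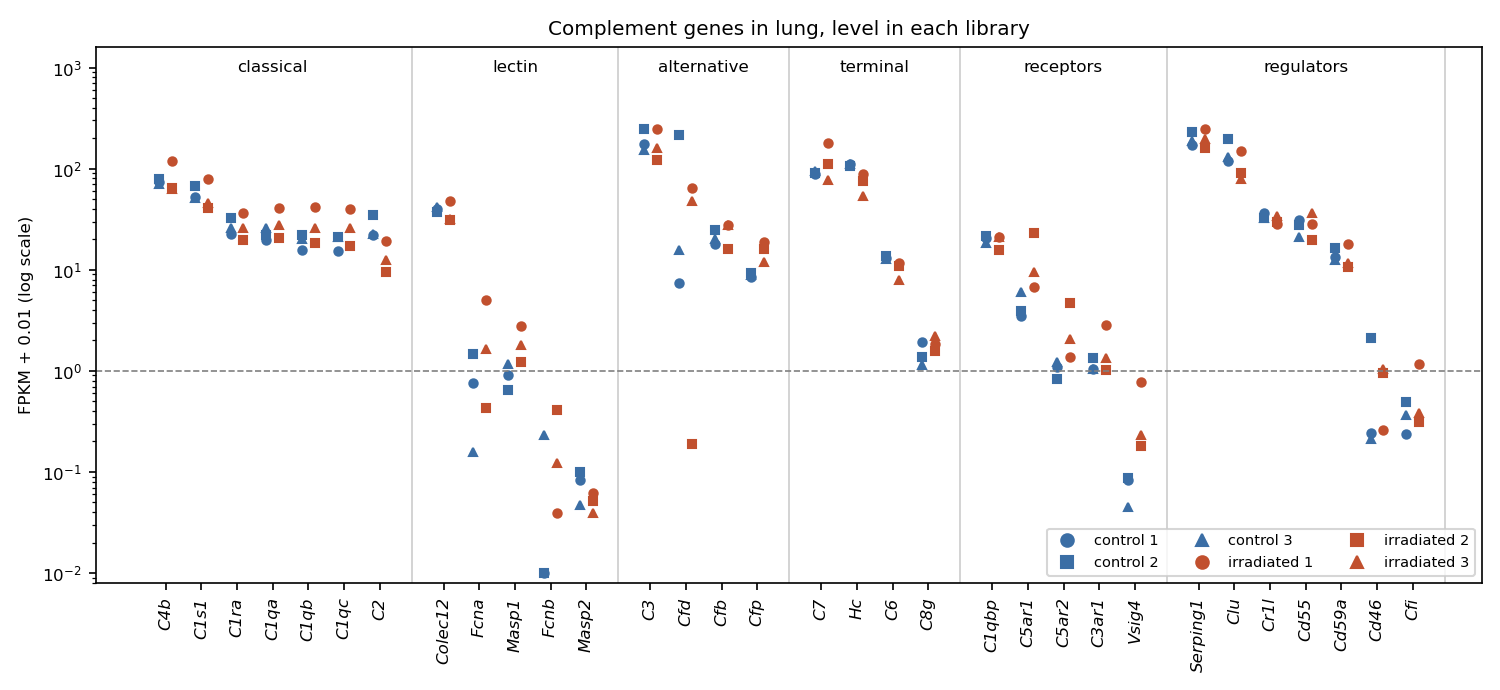
Level of each of the 32 complement genes, grouped by arm, in each library (FPKM + 0.01, log axis), with controls in blue, irradiated libraries in orange, a circle, square and triangle for libraries 1, 2 and 3, and a dashed line at 1 FPKM. Serping1 and C3 were highest in both groups, and the irradiated libraries of C2 and Hc lie below the controls.

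Serping1, C3 and Clu were the most abundant of these transcripts. In control lung Serping1, the inhibitor of C1r, C1s and MASP proteases, had the highest mean (196 ± 29.3 FPKM, SD, n = 3), followed by C3 (191 ± 49.2 FPKM), Clu (148 ± 41.7 FPKM), Hc (110.1 ± 2.74 FPKM) and C7 (91.6 ± 2.96 FPKM). Neighbours among the first 4 in this order differed by less than the larger SD of the pair. In irradiated lung Serping1 (201 ± 43.3 FPKM) and C3 (177 ± 62.4 FPKM) were again the highest. In the order of group means Hc took place 4 in control and place 6 in irradiated lung, C2 places 12 and 19, and Cfp places 21 and 18.

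In the classical arm (7 genes, all tested, 0 called, median log2 change 0.07), C2 was the member whose groups did not overlap. C2 is the serine protease that joins C4b in the C3 convertase of the classical and lectin routes. Its level was 21.8, 35.2 and 22.5 FPKM in control 1, 2 and 3, and 19.4, 9.45 and 12.6 FPKM in irradiated 1, 2 and 3. Every irradiated library was below every control, irradiated 1 only narrowly. The group means were 26.5 ± 7.50 and 13.8 ± 5.09 FPKM (log2 change −0.92 ± 0.28 SE, unadjusted p = 0.0155, limma adjusted p = 0.188). Without control 2 and irradiated 2, the log2 change was −0.48 (limma adjusted p = 0.518).

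C4b, which supplies the other part of that convertase, did not share the pattern. It was at 73.3, 79.9 and 70.6 FPKM in the controls and at 119, 64.1 and 62.3 FPKM in the irradiated libraries. Irradiated 1 was above and the other irradiated libraries were below all controls. The log2 change was 0.07, and −0.23 without irradiated 1. C4a, a near-identical copy of C4b, was listed at 0.208 to 0.328 FPKM, so the split of reads between these copies is uncertain.

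The 3 chains of C1q, the recognition protein of the classical route, which tissue macrophages make, were nearly equal in level. C1qa was at 19.7, 22.0 and 26.0 FPKM in control 1, 2 and 3, and at 40.6, 20.7 and 27.4 FPKM in irradiated 1, 2 and 3. C1qb was at 15.8, 22.3 and 20.3 against 41.4, 18.3 and 26.0 FPKM, and C1qc at 15.4, 21.0 and 21.3 against 40.0, 17.2 and 25.7 FPKM. Each chain was highest in irradiated 1 and next highest in irradiated 3, while irradiated 2 was inside the control range. The log2 changes were 0.33 ± 0.24, 0.47 ± 0.29 and 0.43 ± 0.30 for C1qa, C1qb and C1qc, and none passed (limma adjusted p = 0.504, 0.438 and 0.482). Their 95% intervals ran from −0.27 at the lowest bound to 1.15 at the highest.

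The C1q genes lie side by side on chromosome 4 (GRCm39, C1qb at chr4:136607437-136613511, C1qc at chr4:136617112-136620242 and C1qa at chr4:136623227-136626155, all on the minus strand). Within a library C1qb was 0.95 to 1.07 times C1qc, the smallest fold between the highest and lowest library among the 11 ratios of neighbouring members. The 10 genes listed as markers of interstitial macrophages and monocytes summed to 141 to 179 FPKM in control lung and 261 to 318 FPKM in irradiated lung. Of the 10 markers, 6 lay above all controls, where 9.91% of all genes did so. Lyve1, the most abundant of the list, alone was at 88.2 ± 16.1 against 191 ± 26.8 FPKM (limma adjusted p = 0.0624). Without it the sums were 68.4 to 74.4 and 96.1 to 99.3 FPKM. Which cells held the Lyve1 RNA was not tested. Cx3cr1, Folr2, Cd163 and Ms4a7 overlapped between the groups, and each was lowest in irradiated 2. Lyve1, Ccr2 and F13a1 were highest in irradiated 2. That library had the highest sum of the list and the lowest C1q levels of its group. Of 10 alveolar macrophage markers, 1 (Chil3) lay above and 3 (Marco, Krt79 and Fabp1) below all controls, beside 9.91% and 14.6% of all genes. The part of macrophages and monocytes in the C1q levels was not tested.

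The 250 bases before the start sites of C1qb and C1qc are shown because these neighbours had the most alike levels, and those of C5ar1 and C5ar2, described further on, because they too lie side by side and were highest in the same library. The sequences are from RefSeq (GRCm38.p6, minus strand, 5′ to 3′), C1qb from chr4:136886201-136886450, C1qc from chr4:136892915-136893164, C5ar1 from chr7:16259339-16259588 and C5ar2, which has 2 start sites there, from chr7:16244155-16244404.
C1qb: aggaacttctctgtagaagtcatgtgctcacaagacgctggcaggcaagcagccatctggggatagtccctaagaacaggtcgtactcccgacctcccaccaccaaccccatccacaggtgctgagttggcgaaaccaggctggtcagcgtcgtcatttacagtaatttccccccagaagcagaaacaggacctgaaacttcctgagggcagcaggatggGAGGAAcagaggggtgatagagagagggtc
C1qc: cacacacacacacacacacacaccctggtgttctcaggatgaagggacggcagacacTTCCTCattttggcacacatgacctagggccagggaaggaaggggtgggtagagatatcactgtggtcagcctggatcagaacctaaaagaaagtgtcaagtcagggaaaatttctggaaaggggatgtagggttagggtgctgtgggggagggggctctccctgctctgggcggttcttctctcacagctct
C5ar1: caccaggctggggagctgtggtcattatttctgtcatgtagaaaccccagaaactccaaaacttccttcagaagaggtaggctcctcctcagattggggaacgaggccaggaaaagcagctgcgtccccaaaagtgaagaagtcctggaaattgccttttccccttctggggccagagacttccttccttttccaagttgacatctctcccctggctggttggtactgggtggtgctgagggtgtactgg
C5ar2: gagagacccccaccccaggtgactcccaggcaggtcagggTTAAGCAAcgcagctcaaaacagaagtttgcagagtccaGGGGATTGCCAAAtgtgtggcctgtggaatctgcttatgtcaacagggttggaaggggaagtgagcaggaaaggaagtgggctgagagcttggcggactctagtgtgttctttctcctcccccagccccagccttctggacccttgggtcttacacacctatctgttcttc
Capitals mark matches, on either strand, to the letters searched: GAGGAA (PU.1 and other ETS factors), TTGCNNAA (C/EBP), TGANTCA (AP-1), TTCNNNGAA (STAT), GGG, any 2 bases, TT, any 1 base and CC (NF-κB), and a pair of GAAA with any 2 bases between them (interferon response element). C1qb and C1qc each held 1 GAGGAA match, at 30 to 25 and at 193 to 188 bases before the RefSeq start site, a motif found in 23.3% of 32851 promoter windows of this length. The bases that follow the RefSeq start of C1qb were in no GENCODE transcript of that gene, unlike those of the other 3, so the start site of C1qb is less certain. C5ar2 held 2 C/EBP matches, a motif in 9.56% of windows, and 1 NF-κB match, a motif in 4.11% of windows. The NF-κB match overlapped the second C/EBP match. C5ar1 held none of these letters in this window. A match describes the sequence and is no measurement of binding.

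The proteases C1ra and C1s1, which sit in the C1 complex and cut C4 and C2, spread widely without separating the groups. C1ra was at 26.9 ± 4.996 against 27.3 ± 8.40 FPKM, with a 95% interval of the log2 change from −0.56 to 0.54. C1s1 was at 57.2 ± 9.26 against 55.1 ± 20.5 FPKM, with an interval from −0.70 to 0.50. Both were highest in irradiated 1 and lowest in irradiated 2, and C1ra was 0.43 to 0.57 times C1s1 in every library. Their copies C1rb and C1s2 were at 0.102 to 0.278 FPKM.

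In the lectin arm (5 genes, 3 tested, 0 called) the tested members differed in level by over an order of magnitude. Masp1 encodes a protease that starts the lectin route. Its level was 0.909, 0.642 and 1.15 FPKM in control 1, 2 and 3, and 2.79, 1.21 and 1.81 FPKM in irradiated 1, 2 and 3. All irradiated libraries were above all controls, irradiated 2 only narrowly. The log2 change was 0.60 ± 0.22 (unadjusted p = 0.0318, limma adjusted p = 0.238), and 0.40 without irradiated 1. Its control mean of 0.90 FPKM is under the filter, so it was tested because of its irradiated level. Masp1 overlaps Rtp4 on the opposite strand, which was at 19.0 ± 1.09 against 16.0 ± 6.26 FPKM. No strand setting is stated, so reads from the overlapping stretch may not have been told apart by strand.

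Fcna, ficolin A, a lectin made by macrophages, was at 0.756, 1.46 and 0.149 FPKM in the controls and at 5.07, 0.422 and 1.64 FPKM in the irradiated libraries. The groups overlapped, with irradiated 1 far above the rest (log2 change 0.73 ± 0.55, limma adjusted p = 0.529). Without irradiated 1 the log2 change was 0.18. Fcna too was tested because of its irradiated level. Colec12, a scavenger receptor collectin of vascular endothelium, was at 39.6 ± 2.38 against 37.1 ± 9.53 FPKM. Masp2, the protease that cuts C4 and C2 in the lectin route, stayed under 0.09 FPKM in every library, and Fcnb, a ficolin of the neutrophil lineage, was listed at 0, 0 and 0.219 FPKM for control 1, 2 and 3, with 0.029, 0.402 and 0.113 FPKM for the irradiated libraries.

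In the alternative arm (4 genes, all tested, 0 called) properdin came closest to the threshold of all members. Properdin stabilises the alternative C3 convertase and is made by myeloid cells. Its gene Cfp was at 8.42, 9.36 and 8.94 FPKM in control 1, 2 and 3, and at 18.6, 16.2 and 12.01 FPKM in irradiated 1, 2 and 3. Every irradiated library was above every control, and the controls lay close together. The group means were 8.91 ± 0.468 and 15.6 ± 3.35 FPKM (log2 change 0.73 ± 0.15, unadjusted p = 0.00229, limma adjusted p = 0.0971). Its log2 change lay between 0.59 and 0.89 over all alternatives. It passed only without irradiated 3 (limma adjusted p = 0.0352). In the other alternatives the limma adjusted p ran from 0.0792 with a common sum to 0.372 without control 2 and irradiated 2. The gene lies at chrX:20791693-20797794 (GRCm39).

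C3, the protein on which all routes converge, was at 175, 247 and 153 FPKM in the controls and at 245, 123 and 162 FPKM in the irradiated libraries. The groups overlapped almost fully (log2 change −0.14 ± 0.28, limma adjusted p = 0.833). Its interval from −0.82 to 0.53 leaves changes of either direction possible. The log2 change was 0.05 without control 2, 0.09 without irradiated 2 and 0.28 without both. Cfb, factor B, which forms the alternative convertase with C3b, was at 21.0 ± 3.51 against 23.9 ± 6.66 FPKM.

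Cfd, factor D (adipsin), the protease that cuts factor B and a main product of adipocytes, had the widest spread of all members. It was at 7.43, 218 and 15.6 FPKM in the controls and at 64.2, 0.178 and 48.3 FPKM in the irradiated libraries. Control 2 was the highest and irradiated 2 the lowest (log2 change −1.01 ± 2.01, limma adjusted p = 0.837). The log2 change was 0.40 without control 2, 0.86 without irradiated 2 and 2.26 without both (limma adjusted p = 0.174), in the opposite direction. The adipocyte hormone Adipoq was at 0.891, 31.2 and 1.85 FPKM in the controls and at 14.2, 0.0235 and 7.23 FPKM in the irradiated libraries. Cfd was 4.51 to 8.46 times Adipoq in each of the 6 libraries. Like Cfd, the 8 adipocyte markers were each highest in control 2, and all except Plin4 were lowest in irradiated 2. Plin4 was at 1.43 FPKM in irradiated 2, above control 1 and control 3 (0.811 and 0.680 FPKM). Adrb3 varied only from 2.87 to 6.81 FPKM over the libraries. Of the 8 adipocyte markers, which summed to 16.1 to 253 FPKM in control lung and 6.54 to 121 FPKM in irradiated lung, none was at 0 in every library. Their part in the level of Cfd was not tested.

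**Figure D2:**
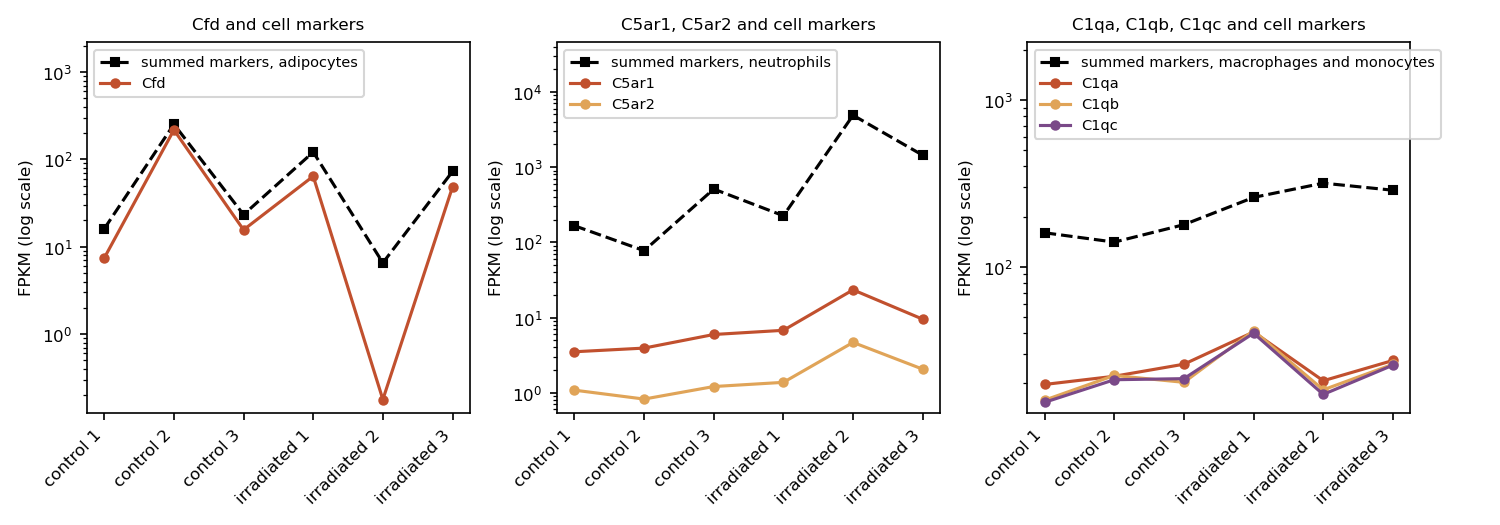
Levels of Cfd, of the C5a receptors and of the C1q chains in each library (coloured lines, FPKM, log axis) beside the summed level of the marker list named in each panel (dashed black line). Cfd and the summed adipocyte markers are highest in control 2 and lowest in irradiated 2. The C5a receptors and the summed neutrophil markers are highest in irradiated 2, and the C1q chains are highest in irradiated 1. Lyve1 is the most abundant gene in the macrophage and monocyte sum.

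In the terminal arm (4 genes, all tested, 0 called) members differed in direction. Hc, which encodes C5, the source of C5a and the first protein of the pore, was at 112, 107 and 111 FPKM in control 1, 2 and 3, and at 87.8, 76.0 and 53.2 FPKM in irradiated 1, 2 and 3. All irradiated libraries were below the narrow range of the controls. The group means were 110.1 ± 2.74 and 72.3 ± 17.6 FPKM (log2 change −0.63 ± 0.18, unadjusted p = 0.00999, limma adjusted p = 0.162). C6, the next protein of the pore, was at 12.97, 13.8 and 12.6 FPKM in the controls and at 11.6, 10.9 and 7.84 FPKM in the irradiated libraries. Its groups did not overlap either, and irradiated 3 was again the lowest (log2 change −0.36 ± 0.14, unadjusted p = 0.0392, limma adjusted p = 0.255). Without irradiated 3, the log2 change of C6 was −0.21 and that of Hc was −0.43.

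C7, which follows C6 in the pore and is a product of lung fibroblasts, was at 88.8, 91.1 and 94.7 FPKM in the controls and at 178, 111 and 76.7 FPKM in the irradiated libraries. Irradiated 1 and 2 were above and irradiated 3 was below all controls (log2 change 0.32 ± 0.28, limma adjusted p = 0.591). Without irradiated 1 the log2 change was 0.01, and without irradiated 3 it was 0.61. C8g, the small chain of C8, was at 1.47 ± 0.404 against 1.87 ± 0.315 FPKM, and it overlaps Fbxw5 on the opposite strand, which was at 16.7 ± 0.624 against 16.0 ± 1.99 FPKM. The other genes of the pore, from the list of further complement genes, were near absent. C8a was at 0.00738 to 0.020 FPKM, and C8b and C9 were listed at 0 except in irradiated 1.

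Beside C2, Hc and C6, many markers of alveolar type 2 cells, mesothelium and alveolar fibroblasts had values below the controls. All 7 type 2 cell markers and all 6 tested mesothelial markers had negative log2 changes, with medians of −0.36 and −0.88. Of them, 5 and 4 lay below all controls, where 14.6% of all genes did so. Sftpc was at 15497 ± 1163 against 9048 ± 469 FPKM, while Sftpa1 was at 904 ± 35.9 against 889 ± 57.8 FPKM. The summed mesothelial markers were 127 to 239 FPKM in control lung and 61.2 to 117 FPKM in irradiated lung. The 7 alveolar fibroblast markers all had negative log2 changes, with a median of −0.62, and 5 lay below all controls. Scn7a among them fell (51.8 ± 2.29 to 29.7 ± 2.14 FPKM, limma adjusted p = 0.0447). The 8 adventitial fibroblast markers had a median of −0.37, 7 of them overlapped between the groups, and Dpp4 fell (24.8 ± 0.638 to 14.8 ± 0.902 FPKM, limma adjusted p = 0.0447). Pi16 of the same list had a positive log2 change of 0.91 (limma adjusted p = 0.263). All 6 B cell markers had negative log2 changes (median −0.35), and all 6 overlapped between the groups. The part of these cells in the complement levels was not tested.

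**Figure D3:**
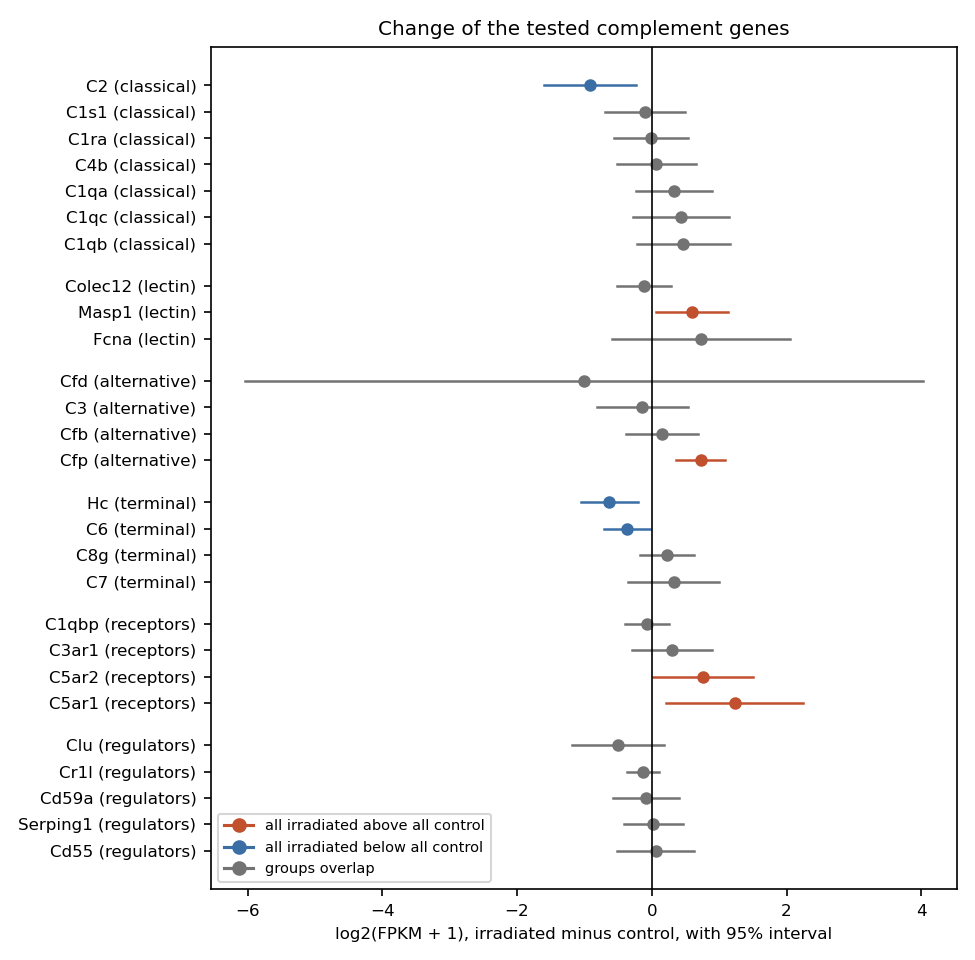
Log2(FPKM + 1) difference (irradiated minus control) of the 27 tested complement genes with its 95% interval from limma, by arm, in orange or blue where all irradiated libraries lie above or below the controls and in grey where the groups overlap. The intervals of Cfp, Masp1, C5ar1, C5ar2, C2, Hc and C6 lie on either side of 0 without crossing it before adjustment for the number of genes.

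Among the receptors (5 genes, 4 tested, 0 called) both C5a receptors lay above the controls. C5ar1, the signalling receptor for C5a of neutrophils and macrophages, was at 3.51, 3.92 and 5.95 FPKM in control 1, 2 and 3, and at 6.76, 23.3 and 9.51 FPKM in irradiated 1, 2 and 3. The groups did not overlap, irradiated 1 was close to control 3, and irradiated 2 was by far the highest (log2 change 1.23 ± 0.42, unadjusted p = 0.0249, limma adjusted p = 0.218). C5ar2, a C5a receptor that does not couple to G proteins, was at 1.08, 0.824 and 1.21 FPKM in the controls and at 1.38, 4.67 and 2.06 FPKM in the irradiated libraries. It showed the same order of irradiated libraries (log2 change 0.76 ± 0.31, unadjusted p = 0.0450, limma adjusted p = 0.269). Without irradiated 2 the log2 changes were 0.75 and 0.41.

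C5ar1 and C5ar2 are neighbours on chromosome 7 (GRCm39, chr7:15980668-15993465 and chr7:15968512-15978079), and C5ar2 overlaps the same-strand locus LOC115486844, which was at 0.624 to 2.54 FPKM. C5ar2 was 0.20 to 0.31 times C5ar1 within a library. The 9 neutrophil markers summed to 166, 77.4 and 510.4 FPKM in control 1, 2 and 3, and to 226, 4888 and 1437 FPKM in irradiated 1, 2 and 3. All 9 had positive log2 changes, with a median of 2.53, and none passed (lowest limma adjusted p = 0.295). C5ar1 was 0.118 to 1.03 times the neutrophil receptor gene Csf3r, so this ratio varied over a wide range. It was 0.67 to 0.96 times Itgam, the α chain of the iC3b receptor CR3. The part of neutrophils in the C5a receptor levels was not tested.

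C3ar1, the receptor for C3a, was at 1.13 ± 0.176 against 1.73 ± 0.976 FPKM, and irradiated 1 (2.84 FPKM) stood above the other libraries (1.02 to 1.34 FPKM). C1qbp, a mostly mitochondrial protein that binds the globular heads of C1q, was at 20.1 ± 1.72 against 19.3 ± 3.17 FPKM. Its gene overlaps Rpain, Cd55 overlaps its antisense gene Cd55os and Masp2 overlaps Tardbp, so their values are uncertain. Vsig4, the complement receptor CRIg of tissue macrophages, was below the filter and was not tested. It was at 0.073, 0.0781 and 0.0353 FPKM in the controls and at 0.765, 0.169 and 0.222 FPKM in the irradiated libraries. Its groups did not overlap, at levels where a value rests on few fragments.

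Of the regulators (7 genes, 5 tested, 0 called, median log2 change −0.09), none had groups that did not overlap. Serping1 was at 173, 229 and 187 FPKM in the controls and at 246, 159.8 and 196 FPKM in the irradiated libraries (log2 change 0.02 ± 0.18, 95% interval −0.42 to 0.46), and −0.14 without irradiated 1. Irradiated 1 was its highest and irradiated 2 its lowest library. Clu, clusterin, a chaperone that keeps the pore out of membranes, was at 118, 196 and 131 FPKM in the controls and at 150.05, 89.8 and 78.2 FPKM in the irradiated libraries. Irradiated 2 and 3 were below all controls and irradiated 1 was within their range (log2 change −0.50 ± 0.29, limma adjusted p = 0.410), and the log2 change was −0.28 without control 2 and −0.78 without irradiated 1.

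The membrane regulators overlapped between the groups. Cd55, decay accelerating factor, was at 26.5 ± 5.01 against 28.2 ± 8.51 FPKM, and Cd59a, which blocks the pore, at 14.1 ± 2.14 against 13.4 ± 4.10 FPKM. Cr1l, the rodent regulator Crry, was at 33.8 ± 2.32 against 30.7 ± 2.95 FPKM, with an interval of the log2 change from −0.37 to 0.10, the narrowest of the 27. Cd46, which in mouse is mainly a testis gene, and Cfi, the protease factor I, were below the filter. Cd46 was at 0.235, 2.09 and 0.202 FPKM in the controls and at 0.248 to 1.04 FPKM in the irradiated libraries, and it overlaps the end of Cr1l on the same strand. Cfi was at 0.229 to 0.478 FPKM in the controls and at 1.15, 0.301 and 0.374 FPKM in irradiated 1, 2 and 3.

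The irradiated libraries differed among themselves in most arms. Irradiated 1 was the highest of the 6 libraries for 14 of the 27 tested members, and irradiated 2 was the lowest for 12. Above all controls lay 17 members (63.0%) in irradiated 1, 5 (18.5%) in irradiated 2 and 11 (40.7%) in irradiated 3, beside 29.9%, 21.0% and 37.3% of all genes tested. Below all controls lay 4 members (14.8%), 17 (63.0%) and 9 (33.3%), beside 32.1%, 50.7% and 30.03% of all genes. Summed over the arm, classical transcripts were 221 to 281 FPKM in control lung, with 376, 190.4 and 226 FPKM in irradiated 1, 2 and 3.

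**Figure D4:**
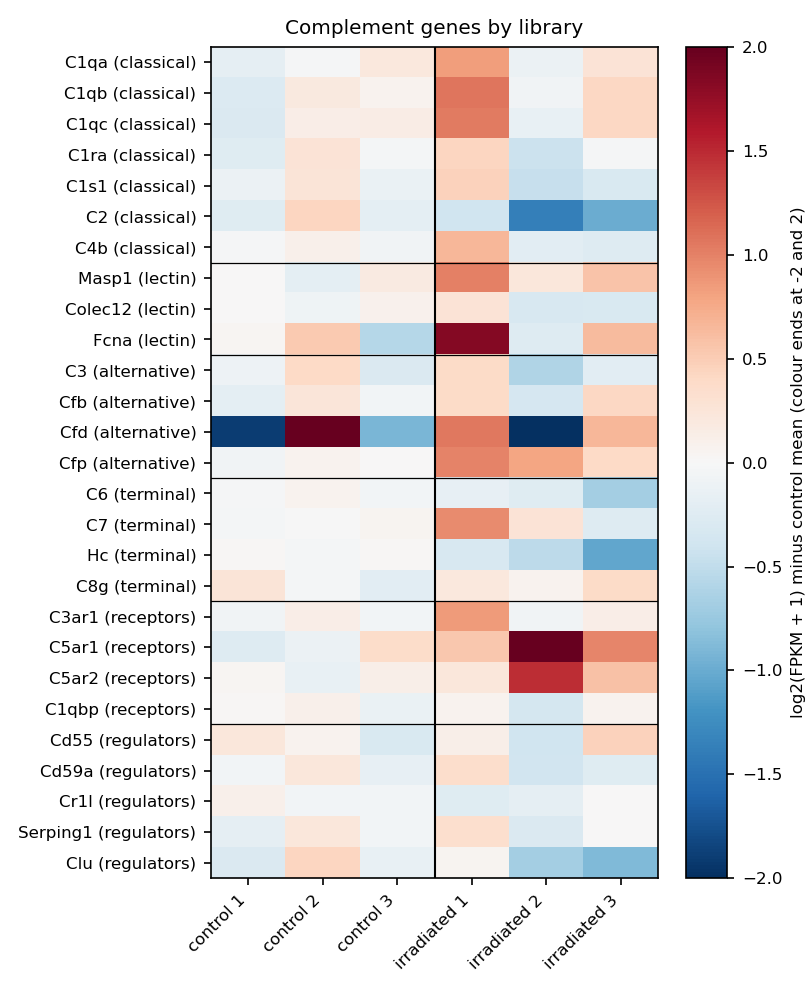
Level of the 27 tested complement genes in each library relative to the control mean (log2(FPKM + 1), colour scale ending at −2 and 2), ordered by arm. The column of irradiated 1 is mostly red, with 17 genes above all controls, and that of irradiated 2 is mostly blue, with 17 genes below all controls and C5ar1, C5ar2, Cfp, Masp1 and C7 above them.

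Ratios within a library are free of the scaling of that library. Of the 351 pairs among the 27 members, 100 (28.5%) had ratios that did not overlap between the groups, beside 25.3% of all pairs of the 13908 genes tested. C2 was lower relative to 23 of the 26 other members, Hc to 14 and Clu to 13, and Masp1 was higher relative to 17 and Cfp to 15. For C5ar1 and C5ar2 the number was 4 each, and for Cfd it was 0. These ratios were computed after the levels were seen and carry no test. Masp1 reached the filter only through its irradiated level, which favours higher ratios, and its 17 pairs are among the 100.

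Among neighbouring genes, C2 and Cfb, related proteases encoded 85 bases apart within the MHC (GRCm39, chr17:35081578-35101076 and chr17:35075350-35081492, both on the minus strand), did not keep their ratio. Cfb was 0.825, 0.707 and 0.892 times C2 in control 1, 2 and 3 and 1.42, 1.71 and 2.22 times C2 in irradiated 1, 2 and 3. C4b, in the same region, was 2.27 to 3.35 times C2 in the controls and 4.96 to 6.78 times C2 in the irradiated libraries. C2 was also 0.125 to 0.147 times C3, which is no neighbour, in the controls and 0.0767 to 0.0791 times C3 in the irradiated libraries. C6 and C7, on chromosome 15, also parted, with C6 at 0.134 to 0.151 times C7 in the controls and 0.0651 to 0.102 times C7 in the irradiated libraries. In all, 3 of 11 pairs of members within 300 kb of each other had ratios that did not overlap between the groups, and C2 is in 2 of the 3. This share is close to that of all pairs of tested members. The 11 include Cd46 with Cr1l, although Cd46 was below the filter and not tested.

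**Figure D5:**
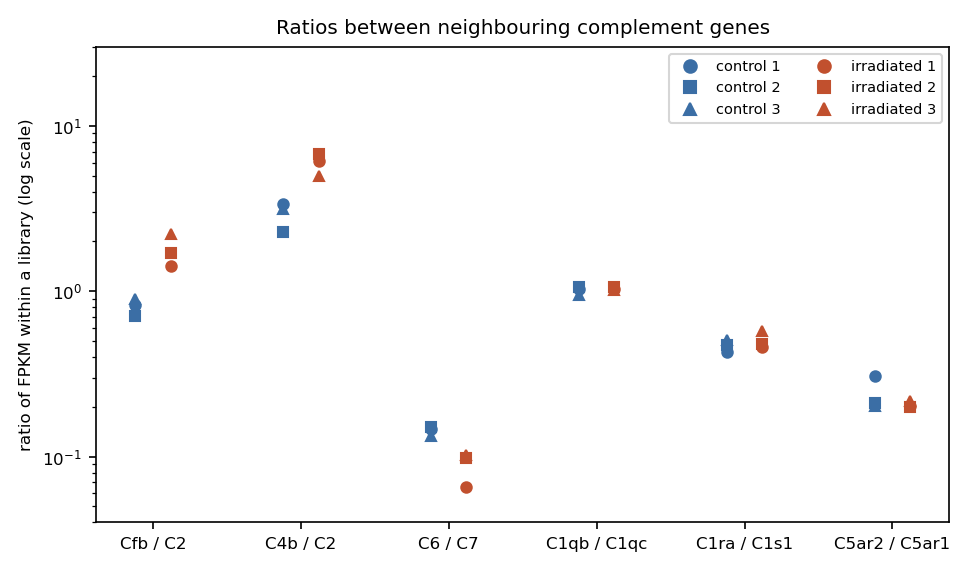
Ratio of FPKM within each library for 6 pairs of neighbouring complement genes (log axis), with controls in blue and irradiated libraries in orange. Cfb to C2 and C4b to C2 are higher and C6 to C7 is lower in all irradiated libraries, while C1qb to C1qc stays close to 1.

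Further complement genes, 34 of 35 found in the files and 13 with a mean of at least 1 FPKM, also held 0 called genes. Their median log2 change was −0.08. The largest positive differences among those 13 were in integrin and uptake receptor chains. Itgam was at 4.59, 4.77 and 6.18 FPKM in the controls and at 7.37, 26.8 and 14.1 FPKM in the irradiated libraries (log2 change 1.31 ± 0.41, limma adjusted p = 0.194). Itgb2, the β chain it shares with Itgax, was at 26.7, 29.4 and 28.2 FPKM in the controls, with 35.9, 52.6 and 43.2 FPKM after irradiation (0.61 ± 0.14, limma adjusted p = 0.115). Lrp1, an uptake receptor that can bind C1q, was at 23.8, 26.5 and 24.4 FPKM in the controls and at 38.9, 33.3 and 35.5 FPKM in the irradiated libraries (0.51 ± 0.09, limma adjusted p = 0.0793). These 3 of the 13 lay above all controls in every irradiated library, where 9.91% of all genes did so. Itgax, the α chain of CR4, overlapped between the groups, at 11.2, 11.9 and 11.4 FPKM in the controls and at 16.3, 11.9 and 15.9 FPKM in the irradiated libraries (0.32 ± 0.13, limma adjusted p = 0.266).

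Mbl1, mannose-binding lectin A, was at 1.11, 1.74 and 1.54 FPKM in the controls and at 0.494, 0.963 and 0.667 FPKM in the irradiated libraries, without overlap (log2 change −0.53 ± 0.17, limma adjusted p = 0.202). Its irradiated mean of 0.708 FPKM is under the filter, so it was tested because of its control level. Cpn1, a subunit of the carboxypeptidase that trims C3a and C5a, did not overlap either (2.73, 2.57 and 2.01 FPKM in the controls, 1.76, 1.98 and 1.45 FPKM after irradiation, log2 change −0.33 ± 0.14, limma adjusted p = 0.295). Mbl1 and Cpn1 were the 2 of the 13 tested genes below all controls, where 14.6% of all genes lay. Of the 21 genes below the filter, Colec11, a collectin of the lectin route, lay below all controls in every irradiated library (0.88 to 1.38 against 0.376 to 0.714 FPKM). C1s2, a copy of C1s1, Csmd1, a membrane protein that inhibits complement, and Cpn2, the other subunit of that carboxypeptidase, lay above all controls, at low levels. The shares over all genes given here cover tested genes only. C1s2 was at 0.102 to 0.105 FPKM in the controls and at 0.142 to 0.209 FPKM after irradiation, Csmd1 at 0.0139 to 0.0346 and at 0.0437 to 0.0758 FPKM, and Cpn2 at 0.0179 to 0.0698 and at 0.140 to 0.250 FPKM. Mbl2 was listed at 0 in all 6 libraries.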

How the data were processed

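Whole lung polyA RNA of 3 control and 3 irradiated libraries was analysed. The deposited table of a library gives location, coverage, FPKM and TPM of genes, per the file headers. GRCm39 is the build and fastp, DESeq2 and STAR 2.7.6a are the tools listed, without roles, per the submitters' processing notes. What made the tables, with which annotation and strand setting, is not given in the sources used here. FPKM were used as the authors deposited them. The deposited coverage (signal per base) served only for depth, as its ratio to FPKM is a constant of the library. Counts are not used, so low values carry unknown counting error. The TPM column was not used.

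Rows with a gene name were kept and FPKM summed per gene. The 13908 genes whose mean over all 6 libraries reached 1 FPKM were tested with limma 3.58.1 in R 4.3.3 (trend, robust) on log2(FPKM + 1), which understates changes of low genes, with group as the only term. P-values were adjusted by Benjamini-Hochberg over all genes and called under 0.05. The procedure was tested on simulated data. Figures and tables used Python 3.11.15 and pandas 2.3.3. Members, lists and the naming rule (members at an unadjusted p under 0.05, without overlap, with a log2 change of at least 0.5 in size, or among the 5 highest in mean level) were chosen with earlier results of these data known. The values of the C1q chains and the within-library ratios are given outside that rule. Promoters are RefSeq (GRCm38.p6), present for 23 of the 32 members, and none is printed for C1qa, C2 and Cfb. Scalings, filters, pseudocounts, variance estimates, a block for replicate number, and the omission of libraries were the alternatives.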

Additional observations from a re-analysis of the deposited data

How the results depend on the processing

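With limma, 0 complement genes were called lower under all 17 alternatives, and 0 to 1 were called higher when each library was left out (Cfp, without irradiated 3). The further complement genes held 0 calls throughout. The number of all genes called, 25 with all libraries, was 38 with a filter at 5 FPKM, 13 with FPKM rescaled to a common sum, 11 with median-ratio scaling, 9 without control 2 and irradiated 2 (an alternative chosen after seeing the data), and 0 to 116 when each library was left out. It was 0 without control 1 and without control 3 (1905 and 1650 genes at an unadjusted p under 0.05), 1 without control 2, 3 without irradiated 2, 100 without irradiated 1 and 116 without irradiated 3. Without a filter it was 0 of 31967 genes (3531 at an unadjusted p under 0.05). The median log2 change of all genes was −0.03 as deposited and 0.08 with a common sum. With the replicate number as a block, 0 genes were called (1623 at an unadjusted p under 0.05). The labels do not say whether the numbers pair the libraries. Deviations of same-numbered libraries from their group means correlated at −0.17, −0.54 and −0.28. With 3 libraries per group these correlations cannot decide whether a pairing exists. Of the 20 log2 changes followed through the alternatives, 16 kept their direction throughout. When each library was left out, C4b ranged from −0.23 to 0.23 (reversed without irradiated 1), C3 from −0.41 to 0.09 and Cfd from −2.04 to 0.86 (both reversed without control 2 or irradiated 2), and Serping1 from −0.14 to 0.17 (reversed without control 1, control 3 or irradiated 1). Without control 2 and irradiated 2, C4b was at 0.26, C3 at 0.28, Cfd at 2.26 and Serping1 at 0.29. The cause of these reversals was not tested. Depth cannot be read as counts, so members under 1 FPKM are described only.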
